A study of Mus musculus with 15 samples.

Results

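The mevalonate pathway genes up to squalene are described here as 9 genes in pathway order, Acat2, Hmgcs1, Mvk, Pmvk, Mvd, Idi1, Fdps, Ggps1 and Fdft1, out of 55421 genes in the count files. They were chosen by gene symbol, from their place in the pathway and not by a threshold on these measurements, and all 9 were among the 18979 genes with enough counts to be tested. The libraries came from posterior eyecups, that is pigment epithelium, choroid and sclera without the neural retina, of 2.5-month-old mice. There were 4 wild-type (WT) mice, 6 heterozygous Tmem135 FUN025/+ mice and 5 homozygous Tmem135 FUN025/FUN025 mice, all on a C57BL/6J background and of both sexes, with 1 library per mouse. FUN025 is a mutant allele of Tmem135, a gene for a membrane protein linked to mitochondria, peroxisomes and lipid droplets, and it is carried in the germline, hence in every tissue. Since each library is 1 mouse, p-values measure the spread between mice.

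The mevalonate pathway joins acetyl-CoA units into mevalonate, turns mevalonate into the activated isoprene units isopentenyl and dimethylallyl diphosphate, and links these into farnesyl diphosphate. Farnesyl diphosphate is the branch point. Squalene synthase commits it to sterols, while other enzymes use it, or the longer geranylgeranyl diphosphate, for ubiquinone, dolichol and the lipid anchors of small GTPases such as the Rab proteins of the pigment epithelium. In most cells the transcription factor SREBP2 is released from the endoplasmic reticulum when membrane sterol is low and raises the genes of this pathway together.

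All 9 genes had positive log2 fold changes in FUN025/FUN025 relative to WT eyecups, as did 48.6% of all genes tested, and 5 of the 9 passed the test: Acat2, Hmgcs1, Mvd, Idi1 and Fdft1 (edgeR's quasi-likelihood test, Benjamini-Hochberg adjusted p under 0.05 over all genes tested). Of all genes tested, 14.0% passed in this comparison and 7.03% passed in the higher direction. The median log2 fold change of the 9 genes was 0.41, against -0.01 over all genes tested. The largest called increase was that of Idi1, at 1.88-fold, and the smallest was that of Fdft1, at 1.17-fold. In FUN025/+ eyecups 8 of the 9 had positive values, as did 49.5% of all genes, with a median of 0.17. Of the 9, 2 passed there, Hmgcs1 and Idi1, beside 13.7% of all genes tested and 7.09% in the higher direction. Levels are CPM, that is counts scaled to library size after TMM normalization, and they compare mice for 1 gene, not genes with each other.

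**Figure D1:**
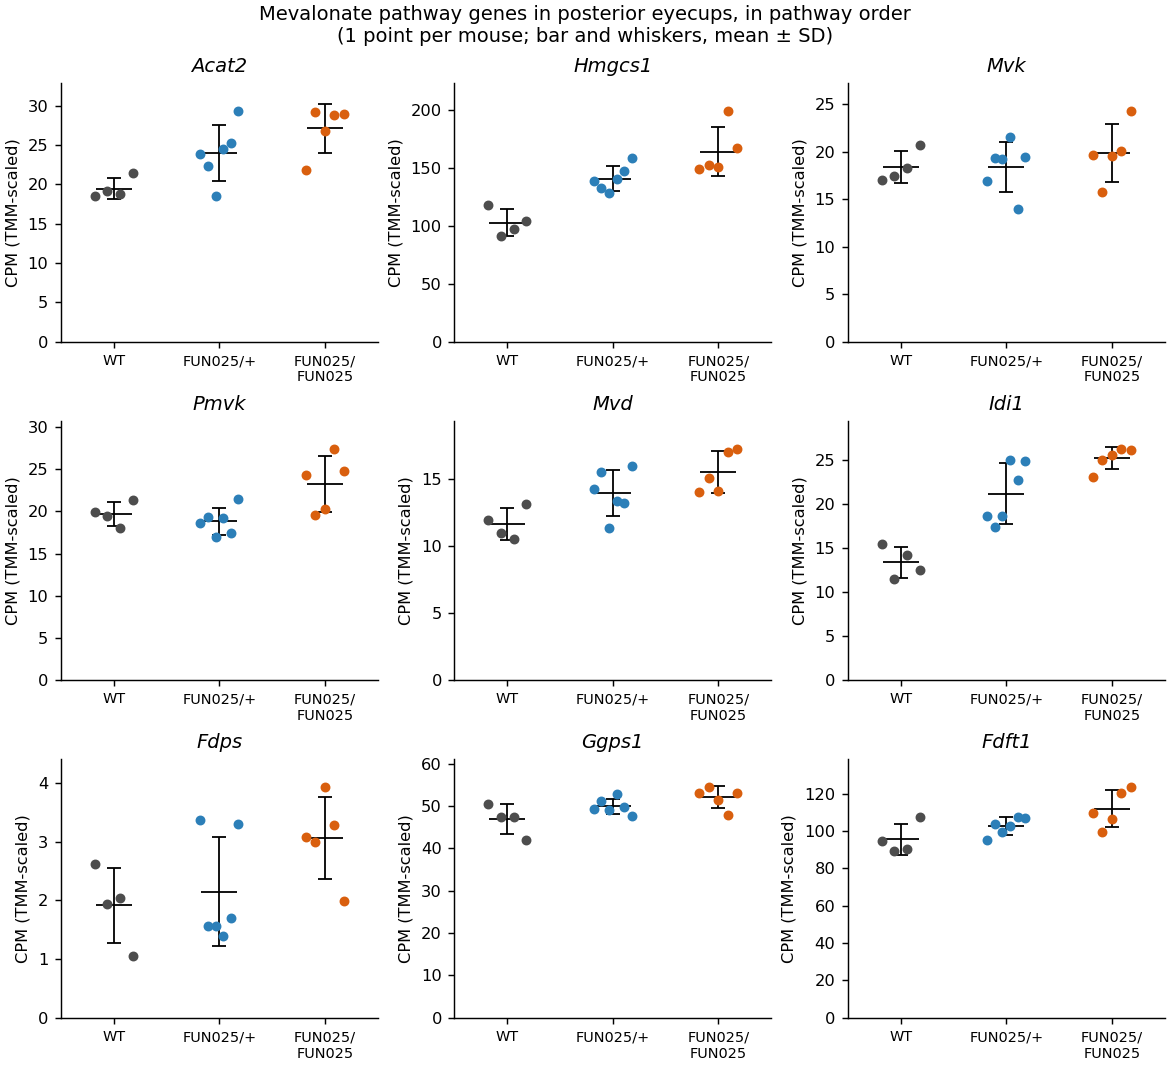
Level of each of the 9 genes in CPM (vertical axes, from 0), with 1 point per mouse for 4 WT, 6 FUN025/+ and 5 FUN025/FUN025 mice and the mean ± SD in black. For Hmgcs1 and Idi1 every mutant mouse lies above every WT mouse. For Acat2 and Mvd this holds for FUN025/FUN025 mice, while FUN025/+ mice overlap with WT. The points of Mvk, Pmvk, Fdps, Ggps1 and Fdft1 overlap between all genotypes.

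The RefSeq promoter windows of 7 of the 9 genes were available, all but Fdps and Fdft1. A sterol regulatory element, searched on both strands as TCACNCCAC, was present in the 250 bases before the start of Hmgcs1, 137 bases upstream, and in none of the other 6 genes' windows. It occurred in 1.05% of 32851 mouse promoter windows of the same length. The CCAAT box, bound by NF-Y, was counted 3 times for Hmgcs1, 5 times for Mvk, 3 times for Ggps1, 2 times each for Mvd and Idi1, once for Pmvk and not for Acat2, and 33.8% of all windows held at least 1. The GC box GGGCGG was counted 2 times for Hmgcs1 and Mvk and once for Mvd, Idi1 and Acat2, against 32.7% of windows with at least 1, and the E-box CACGTG was in no window of these genes and in 6.02% of all. Pmvk has a second annotated start, whose window held none of the 4 motifs. A match of letters is not a site of binding, and its absence says only that these letters are not in this window. The windows of 3 genes are shown, 5′ to 3′ on GRCm38.p6, because they span the changes: Hmgcs1 rose in both mutant genotypes, Mvd rose in FUN025/FUN025 and did not pass in FUN025/+, and Mvk had the smallest change of the 9. Capitals mark the motifs, which do not overlap each other (TCACCCCAC is the sterol element, CCAAT or its reverse ATTGG the CCAAT box, GGGCGG or its reverse CCGCCC the GC box).
Hmgcs1 (chr13:119690101-119690350, plus strand): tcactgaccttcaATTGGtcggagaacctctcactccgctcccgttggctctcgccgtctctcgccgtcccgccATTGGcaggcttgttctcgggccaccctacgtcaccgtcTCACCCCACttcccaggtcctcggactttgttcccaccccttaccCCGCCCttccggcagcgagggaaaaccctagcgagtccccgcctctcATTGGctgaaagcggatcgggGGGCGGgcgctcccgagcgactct
Mvd (chr8:122443423-122443672, minus strand): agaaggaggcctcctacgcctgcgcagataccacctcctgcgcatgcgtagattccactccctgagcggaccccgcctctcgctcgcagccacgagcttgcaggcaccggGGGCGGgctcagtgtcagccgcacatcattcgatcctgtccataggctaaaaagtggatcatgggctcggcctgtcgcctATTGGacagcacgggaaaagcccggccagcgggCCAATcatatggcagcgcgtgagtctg
Mvk (chr5:114444019-114444268, plus strand): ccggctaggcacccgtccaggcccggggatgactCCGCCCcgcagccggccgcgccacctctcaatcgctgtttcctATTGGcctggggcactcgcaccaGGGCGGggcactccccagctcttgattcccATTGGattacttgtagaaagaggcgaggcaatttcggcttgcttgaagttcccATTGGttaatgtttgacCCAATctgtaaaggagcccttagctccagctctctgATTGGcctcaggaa

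Acat2 (ENSMUSG00000023832, GRCm38 chr17:12942890-12960747, minus strand) encodes the cytosolic thiolase that joins 2 acetyl-CoA molecules into acetoacetyl-CoA. Its CPM was 18.5, 19.1, 18.7 and 21.5 in the WT mice and 21.9, 29.2, 26.8, 28.8 and 28.9 in the FUN025/FUN025 mice. It ran from 18.5 to 29.4 in FUN025/+ mice, with a median of 24.2. Every homozygous mouse lay above every WT mouse, narrowly in the case of the first homozygous mouse, while the heterozygous mice spanned both. The log2 fold change was 0.48 (SE 0.11, adjusted p = 0.0075 by edgeR) in FUN025/FUN025 and 0.30 (SE 0.11, adjusted p = 0.0659) in FUN025/+, the latter not passing. Of the 31-base words of Acat2 transcripts, 43.8% also occur in the neighbouring paralog Acat3, so that the placement of a share of its reads may be uncertain. Acat3 itself changed by 0.07 on the log2 scale in FUN025/FUN025, which did not pass (adjusted p = 0.4756 by edgeR).

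Hmgcs1 (ENSMUSG00000093930, chr13:119690379-119708260, plus strand) encodes the cytosolic synthase that adds a further acetyl unit to give HMG-CoA. The WT mice stood at 118, 91.5, 97.5 and 104 CPM and the FUN025/FUN025 mice at 149, 152, 151, 199 and 168 CPM. The FUN025/+ mice ran from 128 to 158 CPM with a median of 139 CPM. No mutant mouse of either genotype reached down to the highest WT mouse, whereas the mutant genotypes overlapped each other. Hmgcs1 was 1.59-fold higher in FUN025/FUN025 (log2 fold change 0.67, SE 0.09, adjusted p = 9.931e-05 by edgeR) and 1.37-fold higher in FUN025/+ (0.45, SE 0.09, adjusted p = 0.0025). The call in FUN025/+ was lost with striated muscle and rod markers as covariates (0.62, adjusted p = 0.0985 by edgeR). The antisense gene Gm48342 shares 557 exon bases with Hmgcs1 and had log2 fold changes of 0.77 and 0.55. Since the strand setting of the counting was not given in the sources used here, reads of the pair may not be told apart.

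Mvk and Pmvk encode the kinases that phosphorylate mevalonate in succession. Mvk (ENSMUSG00000041939, chr5:114444269-114460591, plus strand) was at 17.0, 17.4, 18.3 and 20.7 CPM in WT and at 19.7, 15.8, 19.6, 20.1 and 24.3 CPM in FUN025/FUN025 mice, and it ran from 13.9 to 21.6 CPM with a median of 19.3 CPM in FUN025/+ mice. The genotypes overlapped throughout. Its log2 fold change was 0.11 (95% interval -0.14 to 0.36, adjusted p = 0.5731 by edgeR) in FUN025/FUN025 and 0.00 (-0.24 to 0.24) in FUN025/+, so that an increase of the size seen for Idi1 lay outside both intervals. Leaving out 1 mouse gave 0.03 to 0.19 in FUN025/FUN025, the lowest without FUN025/FUN025 mouse 5. Pmvk (ENSMUSG00000027952, chr3:89454541-89469013, plus strand) was at 19.97, 19.4, 17.99 and 21.4 CPM in WT and at 24.4, 19.6, 20.2, 27.4 and 24.9 CPM in FUN025/FUN025 mice. In FUN025/+ mice it ran from 16.9 to 21.4 CPM with a median of 18.9 CPM. In 3 of the 5 homozygous mice Pmvk lay above every other mouse, and the remaining 2 lay within the WT range. The log2 fold change was 0.24 (adjusted p = 0.1063 by edgeR) in FUN025/FUN025 and -0.07 in FUN025/+, and neither passed.

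Mvd (ENSMUSG00000006517, chr8:122433601-122443422, minus strand) encodes the decarboxylase that forms isopentenyl diphosphate. It was at 12.0, 10.9, 10.5 and 13.1 CPM in WT and at 14.0, 15.1, 14.1, 17.0 and 17.2 CPM in FUN025/FUN025 mice. FUN025/+ mice ran from 11.3 to 16.0 CPM with a median of 13.8 CPM. The homozygous and WT mice did not overlap, and the heterozygous mice overlapped with both. Mvd was 1.33-fold higher in FUN025/FUN025 (log2 fold change 0.41, SE 0.11, adjusted p = 0.0162 by edgeR), whereas the 0.26 of FUN025/+ did not pass (adjusted p = 0.1002). With striated muscle and rod markers as covariates the value in FUN025/FUN025 was 0.40 and did not pass (adjusted p = 0.3290 by edgeR, the highest of its settings, with 0.0035 the lowest).

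Idi1 (ENSMUSG00000058258, chr13:8885501-8892451, plus strand) encodes the isomerase that makes dimethylallyl diphosphate from isopentenyl diphosphate. The WT mice stood at 15.4, 11.4, 14.1 and 12.5 CPM. The FUN025/FUN025 mice stood at 23.1, 24.9, 25.5, 26.2 and 26.0 CPM, the tightest homozygous group among the 5 called genes, with a coefficient of variation of 5.08%. FUN025/+ mice ran from 17.3 to 24.9 CPM with a median of 20.6 CPM, where 3 mice lay between 17.3 and 18.6 CPM and 3 between 22.7 and 24.9 CPM. All 11 mutant mice lay above all 4 WT mice. The log2 fold change was 0.91 (SE 0.11, adjusted p = 3.479e-05 by edgeR) in FUN025/FUN025 and 0.66 (SE 0.11, adjusted p = 6.905e-04) in FUN025/+. Of the 31-base words of Idi1 transcripts, 27.1% also occur in other genes, most of them in Gm13502 (18.4%), so that a share of its reads may be uncertain.

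Fdps (ENSMUSG00000059743, chr3:89093588-89101959, minus strand) encodes farnesyl diphosphate synthase, and it was counted at only 16 to 49 reads per library. It was at 2.62, 1.94, 2.05 and 1.06 CPM in WT and at 3.09, 3.002, 3.94, 3.29 and 1.996 CPM in FUN025/FUN025 mice. In FUN025/+ mice it ran from 1.39 to 3.38 CPM with a median of 1.63 CPM, the 4 lower mice standing apart from the 2 higher. The genotypes overlapped, and the log2 fold change of 0.68 had a 95% interval of 0.06 to 1.30 (adjusted p = 0.1371 by edgeR). Of its 1382-base principal mRNA, 81.3% lies under exons of the same-strand read-through gene Gm43738. That gene had a mean count of 0.5 per library. How reads under both genes were assigned was not tested.

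Ggps1 and Fdft1 take farnesyl diphosphate along different branches. Ggps1 (ENSMUSG00000021302, chr13:14050659-14063488, minus strand) encodes geranylgeranyl diphosphate synthase and was at 50.5, 47.5, 47.3 and 42.0 CPM in WT and at 53.1, 54.5, 51.5, 47.8 and 53.2 CPM in FUN025/FUN025 mice. In FUN025/+ mice it ran from 47.7 to 52.8 CPM with a median of 49.6 CPM. The groups overlapped, and the log2 fold changes of 0.15 (95% interval 0.04 to 0.27, adjusted p = 0.0747 by edgeR) and 0.09 did not pass. It shares 257 exon bases with Arid4b on the opposite strand, which was at -0.07 (adjusted p = 0.4580 by edgeR). Fdft1 (ENSMUSG00000021273, chr14:63145150-63179578, minus strand) encodes squalene synthase and was at 94.9, 89.4, 90.5 and 108 CPM in WT and at 110, 99.7, 107, 121 and 124 CPM in FUN025/FUN025 mice. In FUN025/+ mice it ran from 95.4 to 108 CPM with a median of 103 CPM. The fourth WT mouse lay inside the homozygous range, so that the groups overlapped although the test passed (log2 fold change 0.23, SE 0.07, adjusted p = 0.0285 by edgeR). Without any one of WT mice 1, 2 and 3 or FUN025/FUN025 mice 4 and 5 the call was lost, with adjusted p between 0.0525 and 0.0734 by edgeR, where all other settings together ran from 0.0088 to 0.3005. Fdft1 shares 774 exon bases with Ctsb on the opposite strand, a gene with a mean count of 17100 against 1451, whose log2 fold change was 0.16 (adjusted p = 0.0737 by edgeR), and here too reads of the pair may not be told apart.

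**Figure D2:**
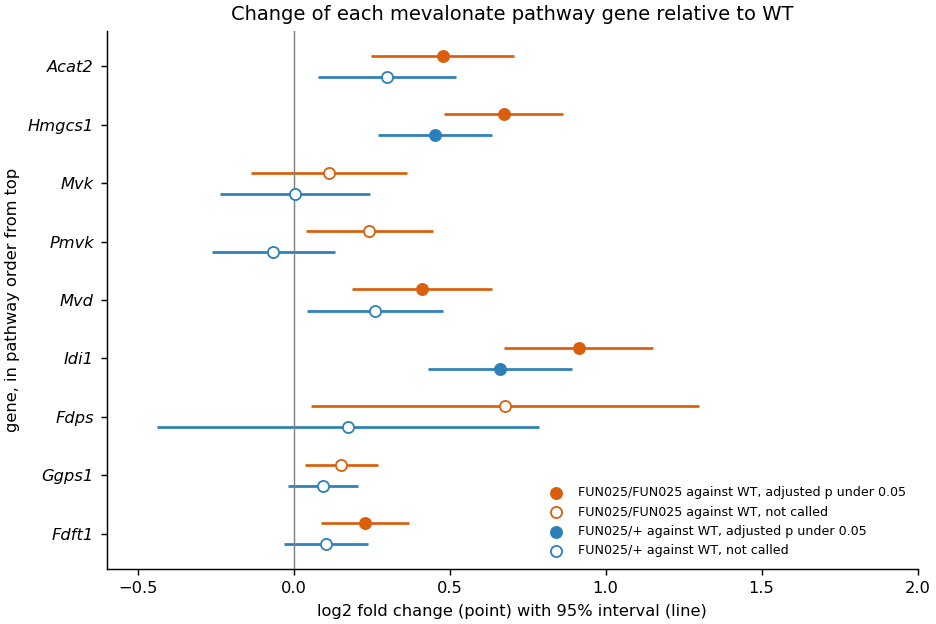
Log2 fold change of each gene relative to WT (horizontal axis) with its 95% interval, in pathway order from the top, for FUN025/FUN025 (orange) and FUN025/+ (blue), filled where the adjusted p was under 0.05. The intervals of Acat2, Hmgcs1, Mvd and Idi1 lie above 0 in both genotypes, although Acat2 and Mvd did not pass in FUN025/+. Those of Pmvk, Fdps, Ggps1 and Fdft1 lie above 0 in FUN025/FUN025 alone, and those of Mvk span 0 in both.

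Set against all genes, 4 of the 9 (Acat2, Hmgcs1, Mvd and Idi1) had every FUN025/FUN025 mouse above every WT mouse, a pattern shown by 7.27% of all genes tested. For FUN025/+ against WT it was 2 of the 9 (Hmgcs1 and Idi1), against 5.75%. An unadjusted p under 0.05 was reached by 8 of the 9 in FUN025/FUN025, all but Mvk, and by 4 in FUN025/+, compared with 28.6% and 28.8% of all genes. The 2 comparisons share the WT mice, so their values are given side by side and do not stand as separate evidence.

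Direct comparison of the mutant genotypes tested whether the second mutant allele changed these genes. All 9 had positive log2 fold changes in FUN025/FUN025 relative to FUN025/+, where 48.2% of all genes did, from 0.06 to 0.51 with a median of 0.18. None passed by edgeR, DESeq2 or limma-voom, where edgeR called 0.522% of all genes. By edgeR 3 of the 9 had an unadjusted p under 0.05, namely Pmvk (0.31, 95% interval 0.12 to 0.49), Hmgcs1 (0.22, 0.05 to 0.39) and Idi1 (0.25, 0.04 to 0.46), beside 6.23% of all genes. In a linear fit on the number of mutant alleles, with adjusted p under 0.01 by edgeR, Hmgcs1 rose by 0.33 per allele (SE 0.05, adjusted p = 5.257e-04) and Idi1 by 0.45 per allele (SE 0.06, adjusted p = 4.336e-04). These were 2 of the 9, where 2.14% of all genes passed. With the striated muscle and rod markers as covariates neither passed (slopes of 0.30 and 0.40, adjusted p = 0.0247 and 0.0218 by edgeR). All 9 slopes were positive, against 48.5% of all genes, and 8 of the 9 had an unadjusted p under 0.05, against 25.9%. Acat2 had a slope of 0.24 with an adjusted p of 0.0130 by edgeR. Against the midpoint of WT and FUN025/FUN025, the FUN025/+ level of none of the 9 passed by edgeR, with 1.95% of all genes passing. Of the 9, 2 had an unadjusted p under 0.05, beside 16.3% of all genes, Idi1 at 0.20 above the midpoint (95% interval 0.02 to 0.39) and Pmvk at -0.19 (-0.35 to -0.02), and limma-voom called none either.

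Per kilobase of merged exons (RPKM), the WT eyecup held most Fdft1 (22.6 ± 1.98, SD, n = 4) and Hmgcs1 (22.4 ± 2.49), whose ranges overlapped. Pmvk (11.5 ± 0.83) and Ggps1 (9.92 ± 0.75) came next, with ranges of 10.5 to 12.5 and 8.89 to 10.7 that overlapped. Below Ggps1, Acat2 (7.65 ± 0.53), Mvk (6.87 ± 0.62) and Mvd (6.25 ± 0.63) overlapped each with the next. Idi1 (3.81 ± 0.51) lay below all of these, and Fdps (0.45 ± 0.15) was lowest as counted. Since 81.3% of the principal Fdps mRNA lies under exons of Gm43738, that value may not be its level in the tissue, which was not tested. In FUN025/FUN025 mice Hmgcs1 stood at 35.7 ± 4.6 RPKM (n = 5, range 32.5 to 43.4) and no longer overlapped with Fdft1 at 26.5 ± 2.35 (range 23.6 to 29.3). Idi1 reached 7.18 ± 0.36 RPKM. The order depends on the length used, since, in a comparison chosen after seeing the data, per kilobase of the longest principal transcript WT Mvk stood at 11.1, level with Ggps1 at 11.0 and above Acat2 at 8.65 without overlap, Fdps stood at 1.39, and Hmgcs1 (29.7) and Fdft1 (25.9) overlapped. By that length WT Pmvk stood at 16.5 (range 15.1 to 17.9) and no longer overlapped with Ggps1 (range 9.89 to 11.9).

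Across the 15 libraries some of the 9 genes moved closely with the others and some did not. The Pearson correlation of each gene's log2 CPM with the mean z-score of the other 8 was 0.91 for Hmgcs1, 0.87 for Mvd, 0.84 for Idi1, 0.80 for Acat2, 0.77 for Fdft1 and 0.64 for Pmvk, and it was 0.39 for Fdps, 0.38 for Ggps1 and 0.28 for Mvk. After removal of the genotype means it remained at 0.77 for Hmgcs1, 0.70 for Mvd, 0.66 for Pmvk, 0.54 for Acat2, 0.50 for Idi1 and 0.49 for Fdft1, and was 0.19 for Mvk, -0.06 for Fdps and -0.36 for Ggps1. These are descriptions over 15 libraries that share genotype, depth and tissue make-up. The mean z-score of the 9 ran from -1.11 to -0.54 in WT mice, between -0.64 and 0.58 in FUN025/+ mice and between 0.38 and 1.19 in FUN025/FUN025 mice. WT and homozygous mice did not overlap on it, and FUN025/+ mouse 3, with the lowest heterozygous value, lay within the WT range. The highest values were those of FUN025/FUN025 mice 4 and 5, at 1.13 and 1.19.

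**Figure D3:**
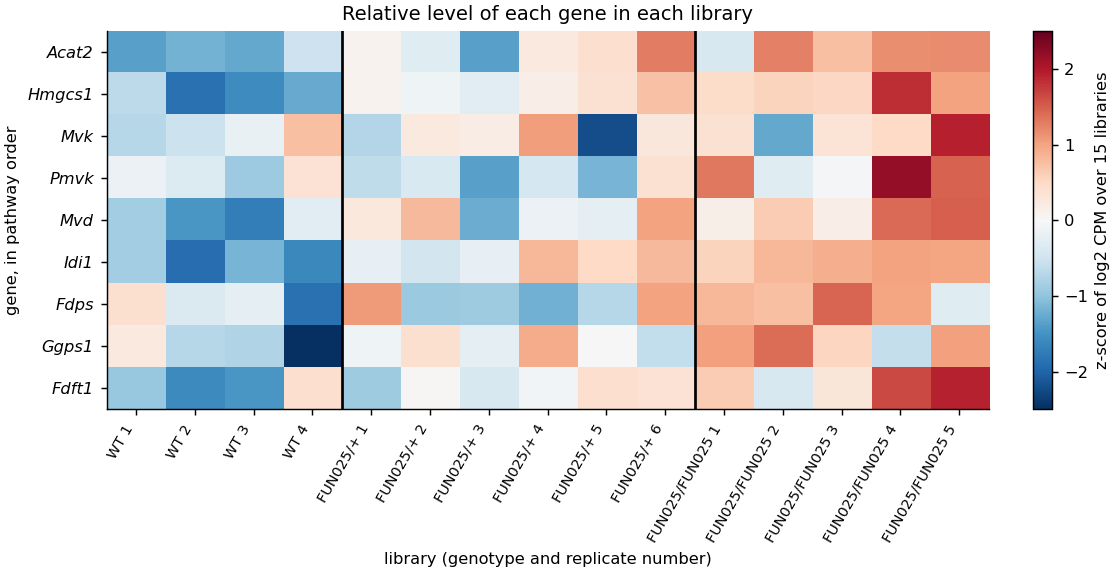
Z-score of log2 CPM over the 15 libraries for each of the 9 genes (rows, pathway order) in each library (columns, genotypes divided by black lines), blue below and red above the gene's mean. Acat2, Hmgcs1, Mvd and Idi1 are below their mean in all 4 WT mice, while Ggps1 and Mvk show no such block.

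Among the genes whose pattern was most like the mean of the 9 were Insig1, which retains the SREBP complex in the endoplasmic reticulum (r = 0.95 over 15 libraries), Sqle, the squalene epoxidase (0.94), Dhcr7, the last reductase of one cholesterol route (0.91), and the predicted gene Gm12999 (0.91). Of 11 enzymes from squalene to cholesterol, 8 rose in FUN025/FUN025 (median log2 fold change 0.50) and 6 in FUN025/+ (median 0.29), and 1, Dhcr7, rose between the mutant genotypes. The shares of all genes called higher relative to WT were 7.03% and 7.09%, with medians of -0.01 and 0.00, and 0.522% of all genes were called between the mutant genotypes. In FUN025/FUN025 relative to WT, Dhcr7 was at 0.61 (adjusted p = 3.072e-06 by edgeR), Lss, which closes the sterol ring, at 0.68 (3.402e-05) and Sqle at 0.54 (1.483e-04). Their values in FUN025/+ were 0.29, 0.36 and 0.32, and all 3 passed there too. The isomerase Ebp, by contrast, was at 0.00 and did not pass.

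Of 9 genes of the SREBP system, 5 rose in FUN025/FUN025 (median 0.27) and 2 in FUN025/+ (median 0.11). The shares of all genes called higher were 7.03% and 7.09%, with medians of -0.01 and 0.00. Insig1 rose by 1.22 (adjusted p = 5.052e-07 by edgeR) and Srebf1, which encodes SREBP1, by 0.74 (2.830e-06). In FUN025/+ Insig1 was at 0.58 (adjusted p = 6.885e-04 by edgeR) and Srebf1 at 0.08 (0.4775). Between the mutant genotypes Insig1 (0.64) and Srebf1 (0.66) rose, where 0.522% of all genes passed. Srebf1 was also the 1 gene of this list off the midpoint, at -0.29 in FUN025/+ (adjusted p = 0.0132 by edgeR), beside 1.95% of all genes.

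Genes that feed the pathway or use its other products were counted in the same way. Of 17 genes that use isoprenoids outside sterol synthesis, among them Pdss1 and Coq2 of ubiquinone synthesis, Dhdds of dolichol synthesis and the prenyltransferase subunits Fnta and Rabggtb, none passed by edgeR, DESeq2 or limma-voom in FUN025/FUN025 or FUN025/+, with medians of -0.01 and -0.06. At an unadjusted p under 0.05 by edgeR there were 1 and 4 of the 17, beside 28.6% and 28.8% of all genes. The smallest adjusted p values in FUN025/FUN025 were those of Coq2 (-0.12, adjusted p = 0.1126 by edgeR), Chm, the Rab escort protein (0.14, 0.2427), and Pdss1 (0.17, 0.3753). In FUN025/+ these stood at -0.13, 0.21 and 0.11. Of 5 genes of the mitochondrial counterparts and ketone bodies none passed in either genotype by the same tools, with medians of 0.01 and 0.03 and with 2 and 1 at an unadjusted p under 0.05 by edgeR. Bdh1 was at 0.23 and 0.03 and Acat1, the mitochondrial thiolase, at 0.13 and 0.14 in FUN025/FUN025 and FUN025/+. Of 5 genes that supply cytosolic acetyl-CoA, 2 rose in FUN025/FUN025, the citrate carrier Slc25a1 (0.24, adjusted p = 0.0151 by edgeR) and ATP citrate lyase Acly (0.22, 0.0465), with 0.12 and 0.00 in FUN025/+, where none passed by edgeR, DESeq2 or limma-voom and 0 had an unadjusted p under 0.05. By limma-voom 1 of the 5 passed in FUN025/FUN025. Mpc2, of the pyruvate carrier, was at -0.15 and -0.11. Of the close relatives, Acat3 did not pass in either genotype by these tools, nor at an unadjusted p under 0.05 by edgeR, and Idi2 had too few counts to be tested.

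**Figure D4:**
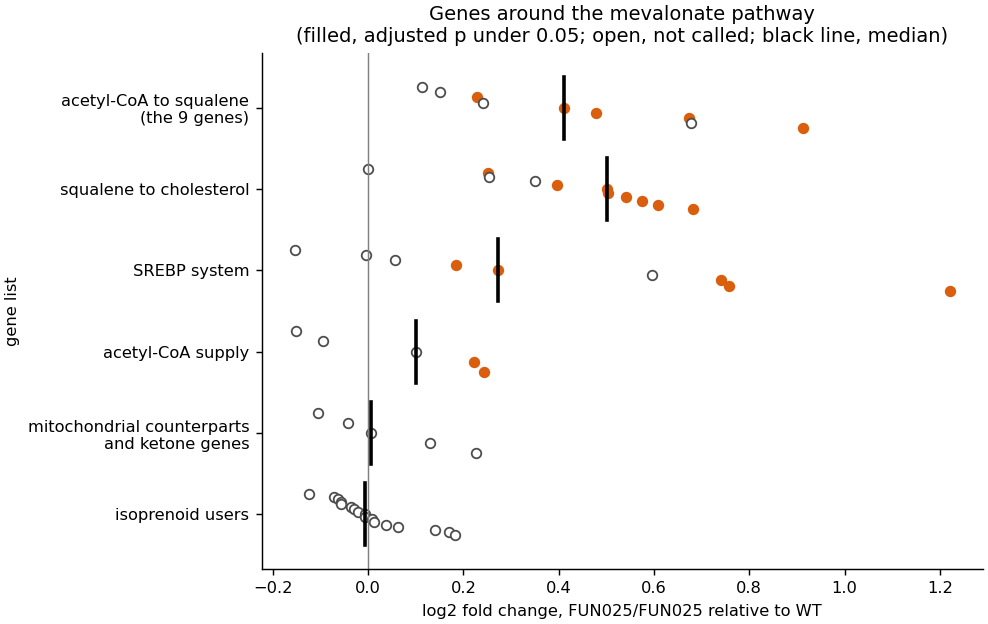
Log2 fold change in FUN025/FUN025 relative to WT (horizontal axis) of each tested gene, by list (rows), filled where the adjusted p was under 0.05, with the median of each list as a black line. The medians are 0.41 for the 9 genes, 0.50 from squalene to cholesterol, 0.27 for the SREBP system, 0.10 for acetyl-CoA supply, 0.01 for mitochondrial and ketone genes and -0.01 for isoprenoid users.

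Several measures of the libraries moved with genotype beside these results. Library totals were 18094977 to 20029919 counts in WT, with 10903183 to 13456349 for FUN025/+ and 11053535 to 15038383 for FUN025/FUN025, so that depth and genotype cannot be told apart in the comparisons with WT, while the totals of the mutant genotypes overlapped. Tmem135, the mutated gene, was at 64.0 ± 2.99 (SD, n = 4), 75.0 ± 7.3 (n = 6) and 88.3 ± 4.57 CPM (n = 5). RPE markers were all detected, and their summed level overlapped, at 17546 to 21315 CPM in WT, 17505 to 23116 for FUN025/+ and 17232 to 21972 for FUN025/FUN025, with 1 of 10 called higher in FUN025/FUN025 by edgeR, where 6 of the 10 were negative (median -0.11). Between the mutant genotypes 8 of the 10 were negative, where 48.2% of all genes were positive. By edgeR 6 of the 10 had an unadjusted p under 0.05, beside 6.23% of all genes. None of the 10 passed there by edgeR, DESeq2 or limma-voom. Rod markers summed to 242 to 2394 CPM in WT, 90.4 to 688 for FUN025/+ and 95 to 430 for FUN025/FUN025. All 10 had negative log2 fold changes in both genotypes, 9 of them at an unadjusted p under 0.05 by edgeR in each, and none passed by edgeR or limma-voom, while DESeq2 called 1 and 2. Striated muscle markers summed to 5244 to 9949, 2784 to 7263 and 4293 to 5248 CPM, all 10 with negative log2 fold changes in both mutant genotypes. By edgeR 3 passed in each, with 6 in FUN025/FUN025 and 7 in FUN025/+ at an unadjusted p under 0.05, while DESeq2 called 5 in each and limma-voom 4 and 6. Endothelial markers summed to 880 to 1037, 691 to 956 and 627 to 776 CPM, with 4 of 6 and 2 of 6 lower in FUN025/FUN025 and FUN025/+ by edgeR. Of 6 macrophage markers 1 was higher in FUN025/FUN025, of 5 Schwann cell markers 2 and 1 were lower in FUN025/FUN025 and FUN025/+, and no fibroblast or pigment cell marker passed by edgeR in either, where 2 of 5 and 1 of 5 had an unadjusted p under 0.05 in FUN025/FUN025 and DESeq2 called 1 pigment cell marker in FUN025/+. Beside these marker counts, 14.0% and 13.7% of all genes passed by edgeR in FUN025/FUN025 and FUN025/+ relative to WT. In the higher direction 7.03% and 7.09% passed. An unadjusted p under 0.05 by edgeR was reached by 28.6% and 28.8% of all genes. None of the markers was at 0 in every library of a genotype. In bulk tissue, fewer cells of a type and less RNA per cell cannot be told apart. With the muscle and rod marker levels as covariates 3 of the 9 genes passed in FUN025/FUN025, Acat2 (log2 fold change 0.79), Hmgcs1 (0.82) and Idi1 (1.20), and in FUN025/+ Idi1 alone (0.99). Of the calls lost, Mvd stood at 0.40 and Fdft1 at 0.20 in FUN025/FUN025, and Hmgcs1 at 0.62 in FUN025/+, in that fit. That fit called 2.76% and 1.03% of all genes in the 2 comparisons. With the RPE markers as a covariate 5 of the 9 genes passed in FUN025/FUN025 and 2 in FUN025/+, beside 16.2% and 13.8% of all genes. The part of the other marker lists in the results was not tested.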

How the data were processed

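Libraries were made by poly(A) selection with the NEBNext Ultra kit and sequenced paired-end. Per the submitters' processing notes, reads were handled with FastQC 0.11.8, Trimmomatic 0.39, HISAT2 2.1.0, SAMtools and featureCounts 2.0.0 on GRCm38, and the authors deposited raw whole-number counts per Ensembl gene for each library. The strand setting is not given in the sources used here. Genotypes came from the sample titles. Genes were named from GENCODE M21, and some genes of the pathway and of the lists are not reported here by name. The 9 genes, the pathway and marker lists and the naming rule were chosen with earlier results of these data known. Named were the 9 genes, the 3 genes of each other pathway list with the smallest adjusted p in FUN025/FUN025 against WT, the 5 genes most like the 9, and Tmem135, less the genes not reported. Ebp, Srebf1 at the midpoint and the named enzymes of the isoprenoid list were singled out after their values were seen.

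After removal of the least variable 15% of genes, low counts were filtered (edgeR's filterByExpr), leaving 18979 genes. TMM scaling factors ran from 0.976 to 1.02. One fit over all 15 libraries (edgeR 4.0.16 in R 4.3.3, quasi-likelihood test, 2-sided, Benjamini-Hochberg adjustment) gave each comparison. Alternatives used DESeq2 1.42.0, limma 3.58.1, other scalings, filters and covariates, and each mouse left out in turn. The fit was tested on simulated data. No pair of libraries was identical, and counts of mice of 1 genotype always differed beyond sampling noise.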

Additional observations from a re-analysis of the deposited data

How the results depend on the processing

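The 5 calls in FUN025/FUN025 and 2 in FUN025/+ were recomputed in 14 other fits and in 15 fits that each left out 1 mouse, and the FUN025/FUN025 calls also at an adjusted p under 0.01, where there were 3, beside 5.44% of all genes. Acat2, Hmgcs1 and Idi1 in FUN025/FUN025, and Idi1 in FUN025/+, passed at an adjusted p under 0.05 in all 29 fits. Not all of these fits are separate tests. The fit without the variance filter tested 18979 genes and called 2666 and 2600, the same as the main fit, so it repeats it. Leaving out a FUN025/+ mouse removes no mouse from the comparison of FUN025/FUN025 with WT. The same holds for a FUN025/FUN025 mouse and the comparison of FUN025/+ with WT. Such fits are a weak test of those calls. With striated muscle and rod markers as covariates, 3 genes passed in FUN025/FUN025, 1 in FUN025/+ and 0 in the trend by edgeR, where 7 had an unadjusted p under 0.05 (limma-voom without covariates called 2) and 0.432% of all genes passed. The slopes there were 0.30 for Hmgcs1 (adjusted p = 0.0247 by edgeR) and 0.40 for Idi1 (0.0218). Leaving out 1 mouse gave 4 to 5 calls in FUN025/FUN025, 2 to 4 in FUN025/+ (4 without FUN025/+ replicate 3) and 2 to 3 in the trend, beside 7.93% to 14.3%, 7.48% to 14.2% and 0.839% to 2.21% of all genes. Pmvk passed in FUN025/FUN025 with the GC content offset, and Ggps1 without WT replicate 1 or FUN025/FUN025 replicate 4, where its log2 fold change was 0.19 in each fit, against 0.06 with the GC offset. In FUN025/+, Acat2 passed by DESeq2 (adjusted p = 0.0487, range over all settings 0.0180 to 0.1763), with Xist as a covariate, and without FUN025/+ replicate 3 or FUN025/FUN025 replicate 1, and Mvd with the GC offset and without FUN025/+ replicate 3. Hmgcs1 in FUN025/+ did not pass with the muscle and rod covariates (0.62, adjusted p = 0.0985 by edgeR, down to 2.182e-05 over the settings). The log2 fold change of Mvk changed sign in FUN025/FUN025 with the muscle and rod covariates (-0.179). In FUN025/+ it was -0.320 with those covariates, -0.001 without the low-count filter, -0.001 with Xist as a covariate, and -0.042 to 0.074 when leaving out 1 mouse. In FUN025/+, Pmvk was 0.015 with the GC offset, and Fdps was -0.018 to 0.355 when leaving out 1 mouse (-0.018 without WT replicate 4 and -0.009 without FUN025/+ replicate 1). The cause of these shifts was not tested. Fdft1 lost its call also in the fit of only the genotypes compared (adjusted p = 0.0526 by edgeR). Counts of 16 to 49 reads limit what can be said of Fdps.

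Same-numbered mice are different animals. The correlation of their deviations from the genotype means ran from -0.385 to 0.133. Differently numbered mice were not correlated, so these values cannot show whether mice of the same number shared a batch. With the replicate block 5 of the 9 genes passed in FUN025/FUN025 and 2 in FUN025/+, beside 11.3% and 10.6% of all genes, and Mvk in FUN025/+ was at -0.010.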
